A study of Rattus norvegicus with 12 samples.

Results

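The granule cell lineage genes described here were Atoh1, Neurod1, Neurod2, Zic1, Zic2, Pax6, Cbln1, Cbln3, Etv1 and Reln. These 10 genes were named for their known roles in granule cells, though with earlier results of these data known. A probe was a member where its gene name in the array files equalled 1 of these 10 symbols. Each gene had 1 probe with 1 spot, so that the members were 10 of 30367 probes and 10 of 26214 gene names on the array. Gene expression was measured on 1-colour oligonucleotide arrays with total RNA of neuron-enriched cultures, grown from the cerebellum of Sprague-Dawley rats on the day after birth and collected at 16 days in vitro (DIV). The 6 control cultures received the solvent dimethyl sulfoxide (0.001%), and the 6 ACE cultures received the neonicotinoid insecticide acetamiprid (1 µM) in the same solvent from day 2. Each of the 6 culture experiments used a single lot of cells, pooled from the pups of a litter, and gave 1 control and 1 ACE array under the same replicate number. The replicate number is therefore also the number of the lot.

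Granule cells are the small excitatory neurons of the cerebellum and its most numerous neurons. Their precursors arise from the rhombic lip, divide in the external granular layer under Sonic hedgehog from Purkinje cells, and migrate inwards as they stop dividing. Transcription factors act in a sequence along this path. Atoh1, Zic1, Zic2 and Pax6 are active in precursors, and Neurod1, Neurod2 and Etv1 take part in differentiation and maturation. Mature granule cells secrete the synapse organisers Cbln1 and Cbln3 from parallel fibres, and reelin is released by granule cells to guide other neurons. Several members are also expressed outside granule cells, Zic1 in meninges and Reln and Pax6 in other neurons, so that their signal in a mixed culture is not particular to granule cells.

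What a probe reads is a 60-base stretch of the transcript. Shown here in 5′ to 3′ order are the 3 member probes that closed with a stop codon (capitals) after an open reading frame, since they place the measurement at the end of the coding sequence. Positions are those of the array files, in the rat build rn4. The Atoh1 probe lies at chr4:94110842-94110901 (plus strand), the Pax6 probe at chr3:91148400-91148459 (plus strand) and the Cbln3 probe at chr15:34027867-34027926 (minus strand).
Atoh1: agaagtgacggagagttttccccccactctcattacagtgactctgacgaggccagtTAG
Pax6: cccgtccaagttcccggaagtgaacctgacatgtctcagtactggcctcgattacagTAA
Cbln3: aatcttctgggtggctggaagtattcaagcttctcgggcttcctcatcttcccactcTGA
The other member probes were at chr3:62225107-62225166 (Neurod1), chr10:87097969-87098028 (Neurod2), chr8:96317434-96317493 (Zic1), chr15:107612953-107613012 (Zic2), chr19:20944514-20944573 (Cbln1), chr6:57752857-57752916 (Etv1) and chr4:8608162-8608221 (Reln).

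The 10 member probes were well above background on all 12 arrays. Signals are given as log2 of the processed intensity after quantile normalisation, so that a difference of 1 is 2-fold, and the level of a probe cannot be set against that of another probe. The 75th percentile of the raw processed signal, a measure of brightness, ranged from 1803 to 4384 over the 12 arrays, and 75.4% to 91.0% of gene spots were well above background. Both arrays of replicate 1 stood apart, as the brightest pair, and had been extracted with an earlier software version than the other 10. Place 1 of each slide held control RNA and place 3 held ACE RNA, so that place and exposure cannot be told apart. Replicates 4 to 6 were scanned together and the other pairs singly. Of the 10 mature granule cell genes on the array, 8 had a probe well above background on all 12 arrays. Gabra6, the α6 subunit of the GABA-A receptor, was among them. The vesicular glutamate transporter Slc17a7 was well above background on 0 of 6 control and 2 of 6 ACE arrays.

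For control versus ACE (CvA), no member passed the adjusted threshold of 0.05 in limma with the replicate as a block (0 of 10 probes), and neither did any other probe (0 of 23796 tested, 0%). The lowest adjusted p was 0.228 among the members and 0.141 over all tested probes. At an unadjusted p under 0.05 there were 2 member probes, Cbln1 and Neurod2, both higher in ACE, beside 16.6% of all tested probes in either direction and 6.9% in the higher direction. A share of 2 in 10 is near the 16.6% of either direction and above the 6.9% of the higher direction, but it counts only 2 probes. The exact signed-rank test over the 6 pairs reached its smallest p, 0.03125, for 1 member, Cbln1, beside 11.6% of all tested probes. The median difference (ACE minus control, log2) was -0.04 over the members, of which 2 were higher and 8 lower, and -0.005 over all tested probes, of which 47.9% were higher. The split of the members rested on replicate 5, without which 6 were higher and the median was 0.007, and within replicates 4 to 6 it was 4 higher with a median of -0.09. Control and ACE arrays overlapped for all 10 members, and the groups did not overlap for 0.0126% of all tested probes.

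**Figure D1:**
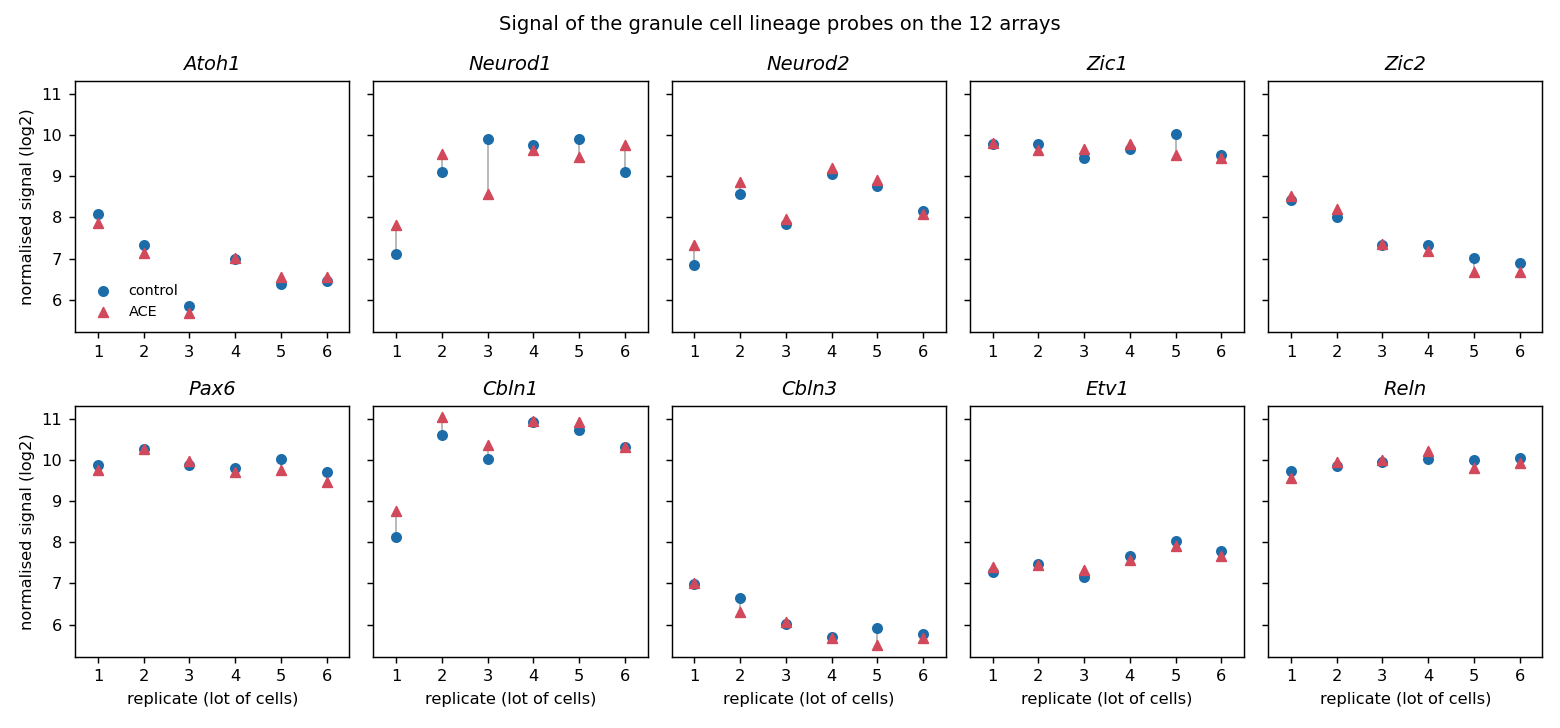
Normalised signal (log2) of the 10 member probes on each array against the replicate number, which is the lot of cells. Circles are control and triangles ACE, joined within a pair. For Cbln1, Neurod1, Neurod2, Atoh1, Zic2 and Cbln3 the lots lay further apart than most pairs, and the Neurod1 pair of replicate 3 had the widest gap, 9.92 in control against 8.58 in ACE.

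Among the secreted proteins, Cbln1 had the largest mean difference of the members. Cbln1 binds neurexins on the parallel fibre and holds its synapse with the Purkinje cell together. Its control signal was 8.12 at the lowest, 10.46 at the median and 10.91 at the highest, and its ACE signal was 8.77, 10.63 and 11.04. The groups overlapped widely, with replicate 1 lowest in both, and the ACE array was the higher one in 6 of 6 pairs, as for 4.72% of all tested probes. On average the ACE array was higher by 0.28 (SE 0.09, 95% interval 0.06 to 0.49), or 1.21-fold, with an adjusted limma p of 0.228 and an exact sign-flip permutation p of 0.03125, the smallest that 6 pairs can give. The pairs were uneven: the difference was 0.65, 0.43 and 0.35 in replicates 1 to 3 and 0.04, 0.18 and 0.01 in replicates 4 to 6. Within the 3 pairs scanned together it was 0.08, with an adjusted limma p of 0.549. Without replicate 1 it was 0.20, and its unadjusted p left the range under 0.05 without replicate 2 or without replicate 3.

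Cbln3, which is secreted only in complexes with Cbln1, did not share this direction. Its signal ran from 5.71 through a median of 5.96 to 6.97 in control and from 5.49 through 5.87 to 7.02 in ACE. The groups overlapped, and 4 of 6 pairs were lower in ACE. Cbln3 differed by -0.13 on average (95% interval -0.31 to 0.04), with an adjusted limma p of 0.408. The size moved with the processing, from -0.23 with the 75th percentile shift to -0.04 with normexp, and was -0.08 without replicate 5.

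Reln, the large extracellular protein of the reelin pathway, was among the steadiest members. Its signal was 9.72 at the lowest, 9.98 at the median and 10.05 at the highest in control, and 9.56, 9.93 and 10.20 in ACE. The groups overlapped, with 3 pairs higher and 3 lower. Its mean difference of -0.03 (95% interval -0.17 to 0.12) leaves room for a change of about 1.08-fold upwards or 0.888-fold downwards.

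Of the factors of differentiating granule cells, Neurod2 was the other member at an unadjusted p under 0.05. Neurod2 is a basic helix-loop-helix factor of postmitotic neurons. Its control signal was 6.84 at the lowest, 8.37 at the median and 9.05 at the highest, and its ACE signal was 7.32, 8.46 and 9.19. The groups overlapped, and 5 of 6 pairs were higher in ACE, with replicate 6 as the exception. For Neurod2 the mean difference came to 0.18 (SE 0.07, 95% interval 0.004 to 0.35), or 1.13-fold, with an adjusted limma p of 0.294 and an exact sign-flip permutation p of 0.0625. Replicate 1 had the largest pair difference, 0.49, and without it the mean was 0.11. Within replicates 4 to 6 the mean difference was 0.06, with an adjusted limma p of 0.693. When 1 pair at a time was left out, its unadjusted p stayed under 0.05 only without replicate 6.

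Neurod1, the related factor that acts earlier and is needed for granule cells to survive and differentiate, was the least settled member. Its signal was 7.11, 9.44 and 9.92 (lowest, median, highest) in control and 7.81, 9.51 and 9.76 in ACE. The groups overlapped, and the pairs went both ways: replicates 1, 2 and 6 were higher in ACE by 0.70, 0.44 and 0.65, and replicates 3, 4 and 5 lower, with differences of -1.34, -0.13 and -0.44. The SD of the pair differences, 0.79, stood at percentile 95.6 of all tested probes. A mean of -0.02 had a 95% interval of -0.70 to 0.66, and a 1.58-fold change in the higher direction lay within the interval. The mean turned to 0.24 without replicate 3.

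Etv1, an ETS family factor of maturing granule cells, had a signal of 7.15, 7.57 and 8.04 in control (lowest, median and highest) and 7.32, 7.50 and 7.90 in ACE. The groups overlapped, and 4 of 6 pairs were lower. Etv1 differed by -0.02 on average (95% interval -0.14 to 0.11) and by -0.12 within replicates 4 to 6 (adjusted limma p of 0.346).

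None of the 4 precursor factors had an unadjusted limma p under 0.05 over the 6 pairs after quantile normalisation. Atoh1, the basic helix-loop-helix factor that sets granule cell fate, had a signal of 5.85, 6.73 and 8.09 in control (lowest, median and highest) and 5.67, 6.78 and 7.86 in ACE. The Atoh1 pairs split evenly, with the ACE array lower in replicates 1 to 3 and higher in replicates 4 to 6. The mean difference was -0.06 (95% interval -0.20 to 0.09) over all pairs and 0.08 within replicates 4 to 6, and was -0.13 with the 75th percentile shift (adjusted limma p of 0.221). When a pair was left out, the Atoh1 difference ranged from -0.097 (without replicate 5) to -0.021 (without replicate 1).

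Zic2, a zinc finger factor of dividing precursors, had a signal of 6.89, 7.33 and 8.43 in control and 6.68, 7.27 and 8.51 in ACE, again as lowest, median and highest. Here the split ran the other way, with ACE higher in replicates 1 to 3 and lower in replicates 4 to 6. Zic2 differed by -0.06 on average (95% interval -0.24 to 0.12), which turned to 0.01 when the background was corrected with normexp. When a pair was left out, the Zic2 difference ranged from -0.115 (without replicate 2) to -0.0077 (without replicate 5). Within replicates 4 to 6 it was -0.23, with an adjusted limma p of 0.334.

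Zic1, its close relative, had a signal of 9.46, 9.72 and 10.02 in control and 9.45, 9.65 and 9.80 in ACE. Replicate 5 held the only large pair difference, -0.50, in a range of otherwise -0.15 to 0.21. The mean of the 6 pairs was -0.06 (95% interval -0.28 to 0.17), and without replicate 5 it turned to 0.03.

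Pax6, a paired box factor kept from the rhombic lip to the mature granule cell, had a signal of 9.71, 9.87 and 10.26 in control and 9.47, 9.75 and 10.26 in ACE. The groups overlapped, although 5 of 6 pairs were lower in ACE. Pax6 differed on average by -0.10 (95% interval -0.23 to 0.03), with an adjusted limma p of 0.384. Within replicates 4 to 6 it was -0.20, with an adjusted limma p of 0.339.

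**Figure D2:**
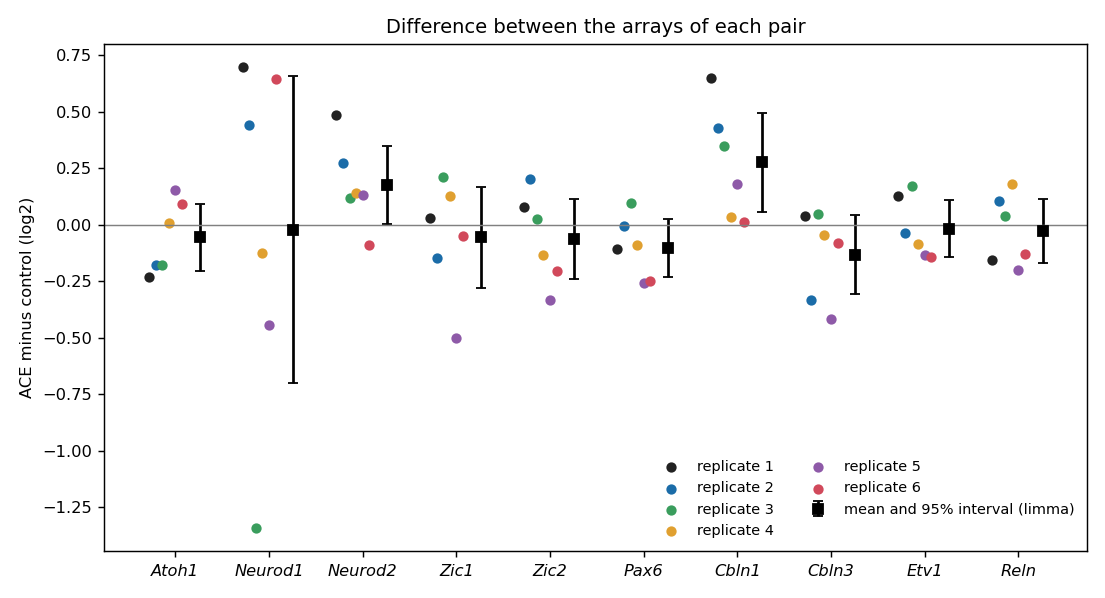
Difference between the ACE and the control array of each pair (log2) for the 10 members. Coloured points are the 6 replicates, and squares with bars are the limma mean and its 95% interval. The intervals of Cbln1 (0.06 to 0.49) and Neurod2 (0.004 to 0.35) lay above 0 before adjustment, and that of Neurod1 was the widest.

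The other genes of the pathway were read from lists chosen for their known roles. None of their probes passed the adjusted limma threshold, so that the counts given here are at an unadjusted p under 0.05, beside 6.9% of all tested probes higher and 9.73% lower. Of 13 tested probes of granule cell precursor genes, 0 were higher and 1 lower. Of 15 tested probes of migration and differentiation genes, 1 was higher and 0 lower. Of 11 tested probes of mature granule cell genes, 0 were higher and 0 lower. The median difference was 0.006 over the precursor probes, 0.009 over the migration and differentiation probes and 0.05 over the mature granule cell probes, against -0.005 over all tested probes. When a pair was left out in turn, these medians ranged from -0.06 (without replicate 2) to 0.03 (without replicate 6), from -0.007 (without replicate 3) to 0.03 (without replicate 5) and from 0.01 (without replicate 2) to 0.07 (without replicate 4), so that the first and the second had no settled sign. The precursor probe was that of the chemokine receptor Cxcr4, outside the naming rule and chosen after its values were seen (difference of -0.13, 5 of 6 pairs, adjusted limma p of 0.180). The migration probe was that of Cntn2, a cell adhesion molecule of young granule cell axons, which was higher in 6 of 6 pairs by 0.18 on average (adjusted limma p of 0.214). Gabra6 differed by 0.15 (adjusted limma p of 0.681).

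The partners of the secreted members were examined in the same way. Reelin binds the receptors Lrp8 and Vldlr, which signal through the adaptor Dab1. Of 8 tested probes for these and related adaptors, 2 were higher at an unadjusted p under 0.05 and 0 lower: Dab1 by 0.10 (adjusted limma p of 0.186) and the adaptor Crkl by 0.13 (adjusted limma p of 0.214), both in 6 of 6 pairs. Lrp8 differed by -0.06 and Vldlr by 0.06.

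Neurexins are the partners of the cerebellins on the parallel fibre. A probe for neurexin 3 (Nrxn3) was lower in 6 of 6 pairs (difference of -0.16, adjusted limma p of 0.156). The other Nrxn3 probes went the other way, with differences of 0.09 and 0.07. A probe for neurexin 2 (Nrxn2) was higher by 0.08 and in 5 of 6 pairs, and was named after its values were seen. Of 9 tested probes of paralogues of the members, 1 was higher, that of Neurod6 by 0.21 in 5 of 6 pairs and likewise named after its values were seen, and 0 were lower. Zic4 and Zic5 differed by -0.09 and -0.06.

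In the 8 lists of markers of other cells (Purkinje cells, inhibitory interneurons, unipolar brush cells, astrocytes, oligodendrocytes, microglia, meningeal fibroblasts and skeletal muscle), 0 to 3 probes of a list were higher and 0 to 2 lower at an unadjusted p under 0.05. Their median differences ranged from -0.07 for astrocytes to 0.14 for inhibitory interneurons, apart from -0.96 for skeletal muscle, where all 11 tested probes were lower. The muscle value rested in part on replicate 2, without which the median was -0.45 and 10 of 11 probes were lower. When a pair was left out in turn, the median of the inhibitory interneuron probes ranged from 0.05 (without replicate 4, and also without replicate 2) to 0.20 (without replicate 6), and without replicate 1 it was 0.07. The Purkinje cell markers, whose cells receive the parallel fibres, had a median of 0.03, with 7 probes higher and 3 lower, and 0.009 without replicate 4.

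Several members varied widely between lots. The SD of the lot means, where a lot mean averages both arrays of a replicate, had a median of 0.61 over the members and 0.29 over all tested probes. The SD of the pair differences had a median of 0.19 over the members and 0.12 over all tested probes. Ranked by lot SD among all tested probes, Cbln1, Neurod1, Atoh1, Neurod2 and Zic2 stood at percentiles 96.7, 95.1, 92.7, 92.4 and 90.0, and Cbln3 at 81.2. Etv1, Pax6, Reln and Zic1 stood at percentiles 46.8, 36.9, 19.7 and 10.9. From the lowest to the highest lot mean, Cbln1 spanned 5.59-fold, Neurod1 4.74-fold, Atoh1 4.64-fold and Neurod2 4.11-fold, and Zic1 spanned 1.24-fold. These values rested in part on lot 1. Without it the lot SD had a median of 0.31 over the members and 0.24 over all tested probes, and Cbln1 spanned 1.68-fold, Neurod1 1.37-fold, Atoh1 2.78-fold and Neurod2 2.33-fold. Atoh1, Zic2 and Neurod2 then stood at percentiles 89.3, 86.9 and 85.9, Cbln3 and Cbln1 at 68.6 and 68.5, and Neurod1 at 40.9.

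**Figure D3:**
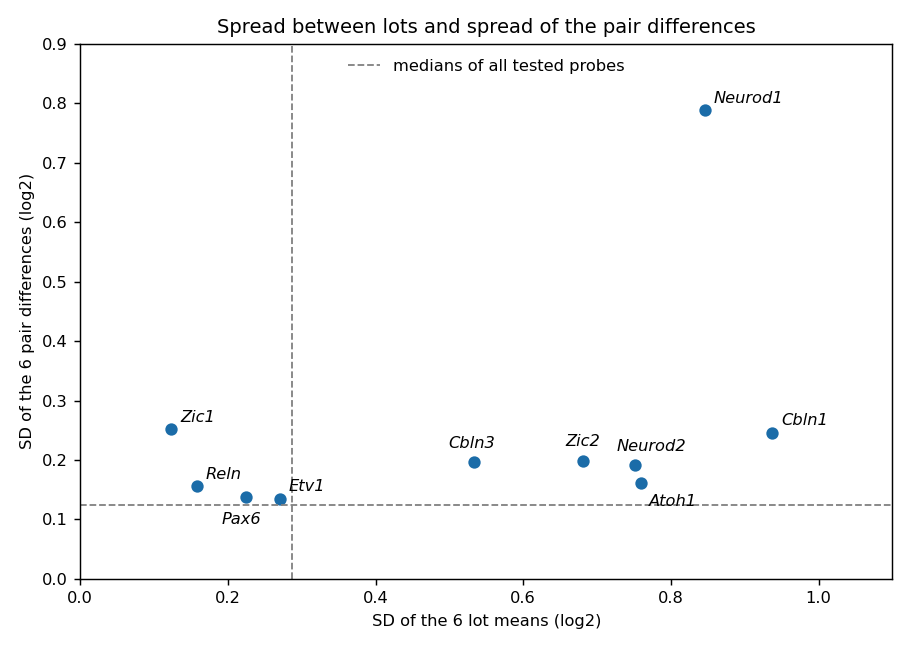
Spread of each member between lots (horizontal axis, SD of the 6 lot means, log2) and between pair differences (vertical axis, SD of the 6 pair differences, log2). Dashed lines are the medians of all tested probes, 0.29 and 0.12. Neurod1 stood alone in the spread of its pair differences (0.79), and Cbln1 had the largest lot SD (0.94).

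The lots ordered the variable members in different ways. Cbln1, Neurod1 and Neurod2 were lowest in lot 1, with differences from the mean of the 6 lots of -1.81, -1.68 and -1.22. Cbln1 and Neurod2 were highest in lot 4, at 0.68 and 0.82 above that mean. Atoh1, Zic2 and Cbln3 were highest in lot 1, at 1.15, 1.00 and 0.89 above the mean. Atoh1 was lowest in lot 3 (-1.06), Zic2 in lot 6 (-0.68) and Cbln3 in lot 4 (-0.42). Cbln1 and Cbln3, whose products join in the same complexes, thus had opposite extremes in lot 1.

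Genes of other cells also differed between the lots. The mean signal of 6 inhibitory interneuron markers was 9.40 in lot 1 and 10.93 in lot 4, its lowest and highest. That of 9 astrocyte and Bergmann glia markers was highest in lot 1 (14.56) and lowest in lot 6 (13.54), and that of 10 oligodendrocyte lineage markers was lowest in lot 1 (12.84) and highest in lot 6 (13.74). The widest span was that of 8 skeletal muscle markers, highest in lot 1 (11.67) and lowest in lot 4 (8.81), and lots 1 and 2 were the highest for these markers as for Zic2 and Cbln3. The mean of 8 mature granule cell genes was lowest in lot 1 (8.31) and highest in lot 4 (9.37), like Cbln1 and opposite to Cbln3. The mean of 9 granule cell precursor genes ranged from 9.66 in lot 3 to 9.96 in lot 2 and was 9.83 in lot 1, where Atoh1 and Zic2 were highest. In RNA of a whole culture, fewer cells of a type and less RNA per cell cannot be told apart, and the part of cell composition in the lot differences was not tested. Brightness moved with the lots too, since lot 1 was the brightest pair, and its part was not tested.

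**Figure D4:**
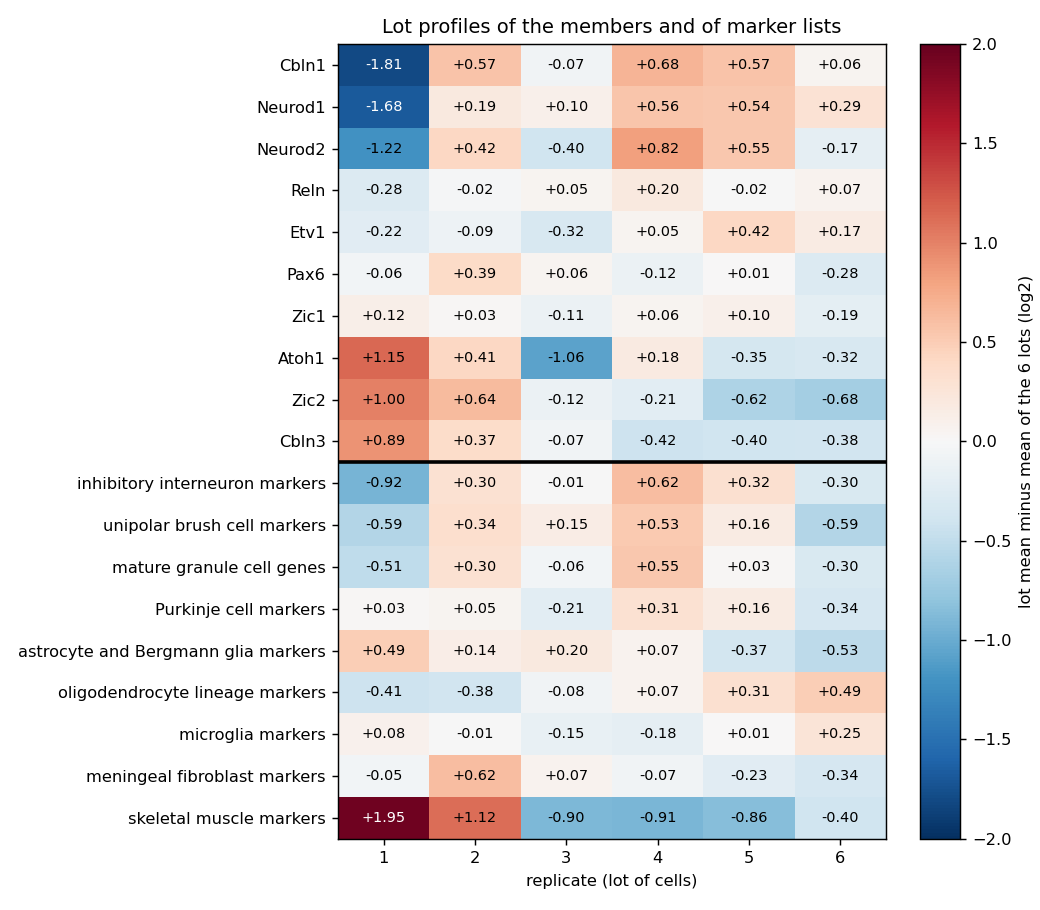
Lot means of the 10 members and of 9 marker lists, each minus its mean over the 6 lots (log2, colour and printed value), with lots in columns. Cbln1, Neurod1, Neurod2 and the inhibitory interneuron markers were lowest in lot 1, and Atoh1, Zic2, Cbln3 and the astrocyte markers highest.

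Co-variation was computed over the 6 lot means for all 45 pairs of members. By the exact two-sided permutation test of Pearson's r, 8 of 45 pairs had an unadjusted p under 0.05, of which 5 were positive and 3 negative, and 0 passed after Benjamini-Hochberg adjustment over the 45 (lowest adjusted p of 0.125 by permutation). By Spearman's rho, 3 pairs had an unadjusted permutation p under 0.05 and 0 passed the adjustment. Over 6 lots there are 720 pairings, so that 1 pair alone could not pass either adjustment, however close its relation. The closest pair by p was Neurod2 and Cbln1, with r of 0.945 (exact permutation p of 0.00278) and rho of 0.943 (exact permutation p of 0.0167). Leaving out lots 1 and 4, the farthest from the median of Neurod2, gave an r of 0.9925 over the remaining lots. It was also high over the control arrays alone (0.967) and the ACE arrays alone (0.914).

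Other relations had a lower or opposite r when 2 lots were left out. Neurod1 and Cbln1 had the highest r of all pairs, 0.973 (exact permutation p of 0.0194, adjusted 0.146), and a rho of 0.829 (exact permutation p of 0.0583), and r was 0.571 without lots 1 and 4. Zic2 and Cbln3 had an r of 0.957 (exact permutation p of 0.00833, adjusted 0.141) and a rho of 0.771 (exact permutation p of 0.103), and r was 0.606 without lots 1 and 2. Neurod1 and Cbln3 went in opposite directions, with r of -0.888 and rho of -0.943 (exact permutation p of 0.0125 and 0.0167), and r was -0.630 without lots 1 and 4. For Neurod1 and Reln, r was 0.888 over the 6 lots and turned to -0.411 without lots 1 and 4, so that this relation rested on those lots.

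**Figure D5:**
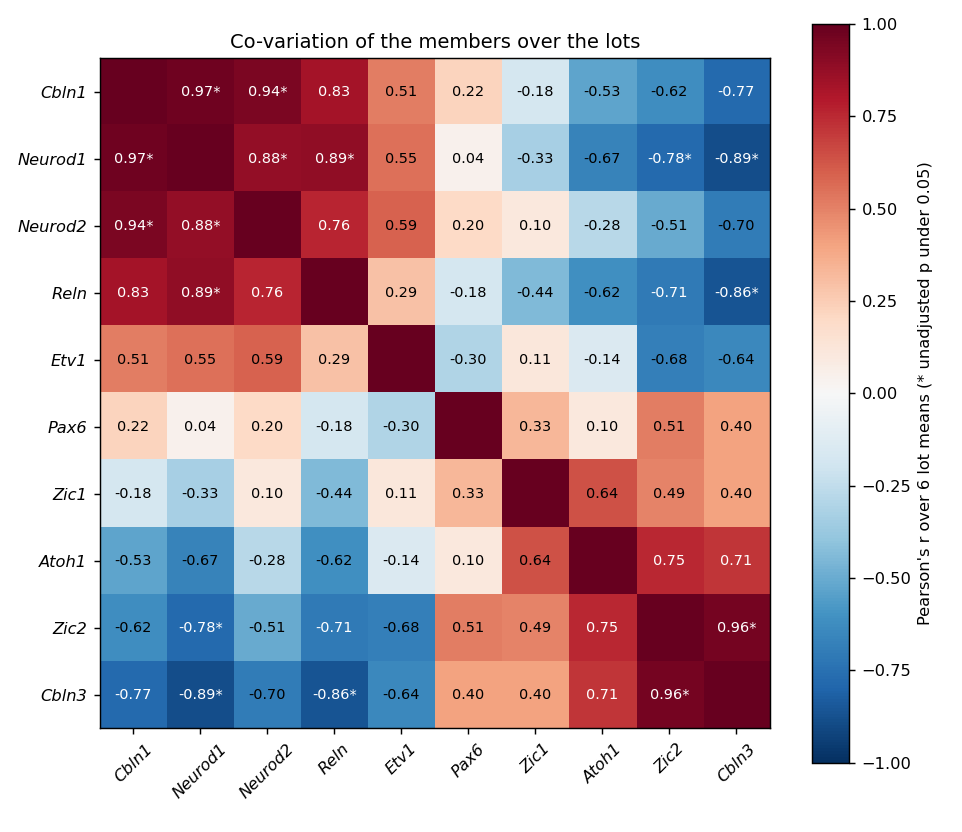
Pearson's r between members over the 6 lot means, by colour and printed value. Stars mark the 8 pairs with an unadjusted exact permutation p under 0.05. Of the 45 pairs, 0 passed after adjustment, which 1 pair alone could not do with 6 lots. The values among Cbln1, Neurod1 and Neurod2 were 0.880 to 0.973, that of Zic2 with Cbln3 was 0.957, and those of Neurod1 with Zic2 and Cbln3 were -0.775 and -0.888.

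Since Neurod1 and Neurod2 had like lot profiles (r of 0.880), opposite to those of Atoh1 and Zic2 in lot 1, the bases before the start sites of these 4 genes are shown. That r had an adjusted permutation p of 0.141 and was 0.667 without lots 1 and 4. Neurod and Atoh1 proteins bind the E-box, CANNTG, and capitals mark each E-box in either direction. The sequences are the 250 bases before the start in RefSeq's GRCr8 annotation, 5′ to 3′ on the gene's strand. Such a window was at hand for 7 of the 10 members, and not for Cbln1, Cbln3 or Zic1. The windows lie at chr3:84770455-84770704 (Neurod1, minus strand), chr10:83824278-83824527 (Neurod2, minus strand), chr4:95241683-95241932 (Atoh1, plus strand) and chr15:105983092-105983341 (Zic2, plus strand).
Neurod1: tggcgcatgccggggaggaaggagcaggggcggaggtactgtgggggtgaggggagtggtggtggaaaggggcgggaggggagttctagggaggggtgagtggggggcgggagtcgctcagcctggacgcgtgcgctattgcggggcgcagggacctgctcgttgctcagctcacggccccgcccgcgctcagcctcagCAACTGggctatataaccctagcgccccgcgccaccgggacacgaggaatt
Neurod2: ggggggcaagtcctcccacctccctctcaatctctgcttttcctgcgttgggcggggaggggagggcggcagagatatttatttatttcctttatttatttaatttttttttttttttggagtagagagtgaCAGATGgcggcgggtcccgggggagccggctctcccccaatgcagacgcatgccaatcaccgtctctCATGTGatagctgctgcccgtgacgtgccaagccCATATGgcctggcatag
Atoh1: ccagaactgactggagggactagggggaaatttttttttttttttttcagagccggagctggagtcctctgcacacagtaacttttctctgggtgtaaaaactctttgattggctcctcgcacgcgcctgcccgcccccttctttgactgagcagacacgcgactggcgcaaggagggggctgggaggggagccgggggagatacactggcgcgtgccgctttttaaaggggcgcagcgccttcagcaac
Zic2: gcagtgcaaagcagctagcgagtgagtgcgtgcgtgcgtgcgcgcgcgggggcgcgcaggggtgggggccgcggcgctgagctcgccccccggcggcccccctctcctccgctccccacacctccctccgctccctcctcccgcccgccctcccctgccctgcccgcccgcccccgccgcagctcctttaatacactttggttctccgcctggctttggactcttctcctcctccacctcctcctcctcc
Of the 33469 windows of this length, 65.5% held at least 1 E-box. The Neurod1 window held 1, and the Neurod2 window held 3, a number reached by 11.5% of windows. The windows of Atoh1 and Zic2 held 0. Of the other members with a window, Etv1 and Reln held 1 each and Pax6 held 0, and the 4 genes shown were picked for their lot profiles. The form CAGATG, searched on both strands and bound by Neurod proteins, occurred in 14% of all windows, and among the 7 members with a window only in that of Neurod2. A match of letters is not a measured binding site, and no binding was measured here.

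For each member, the 3 other genes with the highest Pearson's r over the 12 arrays were found among 14981 probes of 12493 genes that were well above background on all 12 arrays and had a symbol in RefSeq's gene table, as a description that includes lot, brightness and exposure. For Neurod2 these were Cplx1, a complexin of the synaptic vesicle (r of 0.981), Slc32a1, the vesicular GABA transporter (0.981), and Vsnl1, a neuronal calcium sensor (0.979). The Slc32a1 probe differed between ACE and control by 0.67, 0.38 and 0.17 in replicates 1 to 3 and by 0.15, -0.004 and -0.11 in replicates 4 to 6. Neurod2 and Cbln1 had their largest pair difference in replicate 1 as well. So did the mature granule cell gene Gabra6, with differences of 0.85, 0.50 and 0.09 in replicates 1 to 3. In replicates 4 to 6 the Gabra6 differences were -0.38, 0.20 and -0.35. Grin2c, of the same mature list, differed by -0.32 in replicate 1. Over all 9 probes of inhibitory interneuron markers, 6 were higher and 3 lower in ACE, with a median of 0.14. Their summed signal ranged from 24810 to 44674 in control and from 23584 to 44378 in ACE. The part of these cells in the differences of Neurod2 and Cbln1 was not tested.

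For Cbln1, the nearest genes were Fstl5 (0.991), Rab6b (0.987) and the Eph receptor Epha8 (0.983), and for Cbln3 they were Spry4, Dgat2l6 and Spata18 (0.987 to 0.990). Those of Atoh1 were Npy, the neuropeptide Y gene (0.983), Ergic3 (0.981) and Dtx3 (0.976). Those of Zic2 were Lrp8, the reelin receptor (0.978), Gpr152 and Gal3st4. The genes nearest to Etv1 were Prc1 (0.984) and Hmgb2 (0.955), both of dividing cells, and Abcf1. Without replicate 1, r was between 0.866 and 0.986 for the nearest 3 genes of Atoh1, Neurod2, Zic2, Cbln1, Cbln3 and Etv1. The highest r was 0.873 for Zic1 (Fbxl2), 0.927 for Pax6 (Fkbp9) and 0.916 for Reln (C9), and without replicate 1 these were 0.862, 0.941 and 0.777. For Neurod1 the nearest were Fbxo28, Pde5a and Cacna1b (0.965, 0.919 and 0.916), which came to 0.881, 0.736 and 0.415 without replicate 1.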

How the data were processed

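Arrays had 1 colour (Cy3). Per the file headers, Agilent Feature Extraction (version 11.0.1.1 for replicate 1, version 11.5.1.1 for the others) gave the authors a background-subtracted processed intensity per spot. The authors also deposited log2 values that were quantile normalised and centred on each probe's median, used here as an alternative. They correlated with the centred values computed here at 0.998 to 0.999 per array over 29940 probes, and the medians of their columns lay between -0.02 and 0.02.

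Control spots were left out and outlier spots set to missing. The log2 processed intensity was quantile normalised over the 12 arrays, and spots of a probe were averaged. Probes above the 20th percentile on at least 7 arrays with at least 4 complete pairs were tested (23796 of 30367) with limma 3.58.1 in R 4.3.3 (lmFit and eBayes, two-sided, Benjamini-Hochberg over all tested probes), the replicate as a block as in the study's paired design. Deviations from group means correlated at 0.449 to 0.912 between arrays sharing a number and at -0.439 to 0.390 otherwise. Single values were tested by exact sign flips (64 patterns) and correlations by all 720 pairings. Scripts were tested on simulated data. Leaving out pairs in the list medians and lot 1 in the lot SD was chosen after seeing the data. The R package data.table (version 1.17.8), Python 3.11.15 and matplotlib 3.10.9 were used.

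The members and gene lists were chosen with earlier results of these data known. Every member was named. From the lists of granule cell, paralogue, reelin and cerebellin genes, probes were named at an unadjusted p under 0.05 with 1 direction in all 6 pairs, together with Gabra6, Lrp8, Vldlr, Dab1, Zic4 and Zic5, and the 3 nearest genes of a member by r. Some genes that this rule names are not reported here. Slc17a7, Cxcr4, Nrxn2, Neurod6 and Grin2c were named after their values were seen. The nicotine and imidacloprid cultures were not analysed here. The number of arrays limits the precision.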

Additional observations from a re-analysis of the deposited data

Results flagged for a closer look

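In 3 of the 20 groups of 6 arrays (10 members in control and in ACE), the lowest array lay far from the other 5 by Dixon's criterion at 95%, which chance alone flags in about 1 in 20 groups. All 3 were arrays of replicate 1: the Neurod1 signal of the control array (7.11 on the log2 scale), the Cbln1 signal of the control array (8.12) and the Cbln1 signal of the ACE array (8.77). These arrays came from the brightest pair, which was also extracted with the earlier software version, and the part of either in these values was not tested. The 3 values are not separate observations, since both arrays came from 1 lot of cells and Cbln1 and Neurod1 had like lot profiles (r of 0.973 over the 6 lots).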

How the results depend on the processing

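No member passed the adjusted threshold under any alternative (0 each time). With the exact signed-rank test none could pass, since its smallest p over 6 pairs, 0.03125, was reached by only 11.6% of all tested probes. The count of members at an unadjusted p under 0.05 (2) fell to 0 with no replicate block and with the replicate as a random block, to 1 with no filter and with the exact signed-rank test, and ranged from 0 to 2 when a pair was left out. Within replicates 4 to 6 it was 3 (Zic2, Pax6 and Etv1, all lower in ACE), and with the 75th percentile shift it was 2, Cbln1 and, in place of Neurod2, Atoh1, which was lower. Over all probes the unadjusted count was 3956 with the block and 81 without it, and the random block put 5 probes past the adjusted threshold against 0. The median difference of the members (-0.04) ranged from -0.059 to 0.0068 when a pair was left out, and was -0.073 with the 75th percentile shift, -0.086 within replicates 4 to 6 and -0.023 in the deposited values. The 8 co-varying pairs became 3 over the ACE arrays alone, all of them among the 8, and 6 over the control arrays alone, of which 3 were among the 8.

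Differences that changed sign, none of them past the threshold, were Zic2 with normexp (0.011) and Atoh1 (0.084) and Neurod1 (0.026) within replicates 4 to 6. When a pair was left out, Neurod1 ranged from -0.165 to 0.243 (lowest without replicate 1, highest without replicate 3), Zic1 from -0.109 to 0.0334 (highest without replicate 5), Etv1 from -0.0547 to 0.00807 (positive without replicate 5 or 6) and Reln from -0.0693 to 0.00704 (highest without replicate 5). The cause was not tested. Over all alternatives, the difference ranged from 0.077 to 0.33 for Cbln1 and from 0.06 to 0.23 for Neurod2, with the lowest value in replicates 4 to 6.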

Other observations

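The gene nearest to Neurod1 over the 12 arrays was Fbxo28, with an r of 0.965, and 0.881 without replicate 1. Its pair differences had an SD of 0.09, against 0.79 for Neurod1. In replicate 3, where the Neurod1 difference was -1.34, the Fbxo28 difference was -0.15. Pde5a, the second nearest, differed by -0.58 in replicate 3 and by -0.14 in replicate 1, where Neurod1 differed by 0.70. Cacna1b, the third, differed by 0.003 in replicate 3. The 3 genes were picked for their r with Neurod1 on these arrays, and Neurod1 had 1 spot per array.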
